A study of Mus musculus with 333 samples.

Results

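The cells described here are 30 single endothelial cells of mouse visual cortex, 23 from adult animals and 7 from animals at postnatal day 12 (P12), out of 333 cells in the series and 34 endothelial cells in all. They were chosen by the submitters' labels alone, as the cells labelled Endothelial among the 62 adult visual cortex cells and the 60 P12 visual cortex cells. All are labelled wildtype. The design text gives 5 mice for each stage, and no age in weeks, sex or strain. Single cells were enriched by fluorescence-activated sorting (the gate is not given in the sources used here), captured on a microfluidic device, and their polyadenylated RNA was amplified and sequenced. The other endothelial cells, 4 from P12 hippocampus, are given side by side as a further P12 set. The comparison asks how the endothelial cells of the cortical vessels differ between the growing and the adult brain.

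Endothelial cells line the blood vessels. In the brain they form the blood-brain barrier: tight junctions close the gaps between them, carrier proteins move nutrients across, and Wnt/beta-catenin signalling keeps up this state. In the first postnatal weeks cortical vessels still grow by sprouting, led by tip cells that follow VEGF, and lay down basement membrane, a sheet of collagen IV, laminins, nidogens and perlecan. In the adult brain the vessel network is largely quiescent. Immediate early genes and heat shock genes are switched on within minutes by many stimuli.

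The labels name no animal for any cell. Each age is therefore 1 sample, and no difference between the ages was tested. Reads were summed over the cells of an age and scaled to CPM, the read count of a gene per 1000000 reads, and the log2 ratio is that of adult CPM + 1 over P12 CPM + 1. A gene was measured at 10 CPM or more in either age, which held for 7167 genes. Ranges give the log2 ratio when each cell in turn was left out, for lists with the measured genes drawn anew each time. Intervals at the 95% level cover counting error of reads or, for shares of cells, the draw of cells as if independent. They do not cover the spread between animals. To count cells in which a gene was read, every cell was first thinned to 370000 reads. Adult and P12 cells come from separate runs of cell IDs, so that age and run cannot be told apart.

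The label was checked against 16 endothelial markers. The 7 P12 cells carried them at 8538 to 27138 summed CPM, and 21 of the 23 adult cells at 10254 to 29278. Adult cells 38 and 52 went against their label, with 43.2 and 2.26 CPM. Cell 52 held 71997 CPM of pericyte and 12380.2 CPM of smooth muscle markers, the classes of mural cell that wrap the vessel. Cell 38 was the deepest adult cell, with 10.8% of the adult reads, and held 162 CPM of myelin markers, 171 of erythroid genes and less of every other marker list. Both stay in the comparison as labelled, and each list is also given without them. Summed mural markers had a median of 5.16 CPM in adult and 23.9 in P12 cells, and the highest values apart from cell 52 were 13865 CPM in an adult and 1098 in a P12 cell. Myelin markers summed to 0 to 5107 CPM in adult cells (median 87.1) and 0 to 625 in P12 cells (median 133). Neuron markers reached 540.0 CPM in adult cell 12 and 8.54 in P12. Astrocyte markers had a median of 3.62 CPM in adult and 502 in P12 cells, with highest cells of 7266 (adult cell 20) and 2713. Microglia markers had medians of 4.46 and 64.5 and highest cells of 676 and 1141 CPM. The part of these genes in the results was not tested. Perivascular macrophage and fibroblast markers had no measured member.

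**Figure D1:**
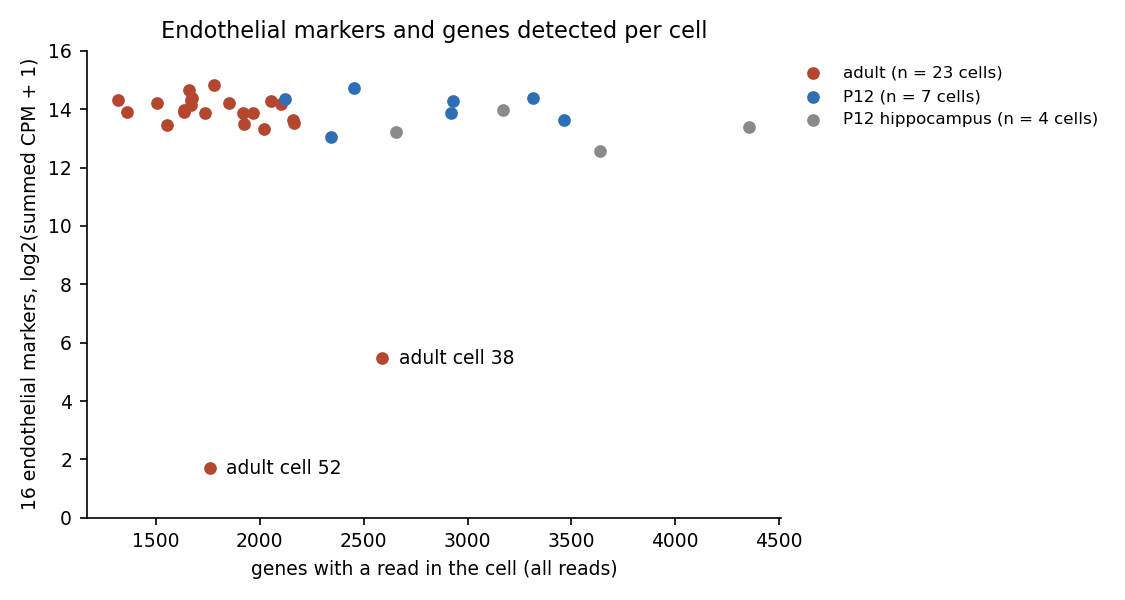
Summed level of 16 endothelial markers (y axis, log2 of summed CPM + 1) against the number of genes with a read (x axis, all reads), each point 1 cell. Adult cells 38 and 52 lie far below all others in markers, and the remaining adult cells lie in the same range of markers as the P12 cells, most of them with fewer genes.

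The adult cells held fewer genes than the P12 cells at similar depth. Reads per cell ran from 527913 to 2660212 in adult (median 953548) and from 774524 to 1740741 in P12 (median 1282720). At 370000 reads the adult cells had 1118 to 2157 genes with a read (median 1592) and the P12 cells 1899 to 3086 (median 2573). After this thinning, 69.8% of measured genes had a read in a smaller share of adult cells and 29.9% in a larger share. Of the 306 genes read in all 7 P12 cells, the median gene was read in 16 of 23 adult cells. The pooled log2 ratio of all measured genes had a median of 0.39, with 43.4% of them at least 2-fold higher and 32.5% at least 2-fold lower in adult. Without adult cells 38 and 52, 2883 genes were higher and 2411 lower. The shares are the background against which each count below is to be read.

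Among endothelial identity genes, most pooled levels were within 2-fold between the ages. Of 16 measured members, 1 was at least 2-fold higher and 2 at least 2-fold lower in adult (median log2 ratio -0.44, -0.22 without adult cells 38 and 52). The VEGF receptor Flt1 was at 3121 against 3155 CPM, the angiopoietin receptor Tek at 1478 against 1935 CPM and the adhesion molecule Pecam1 at 651 against 757 CPM. The exceptions were the VEGF receptor Kdr (412 against 1166 CPM) and the guidance receptor Robo4 (375 against 965 CPM), both lower in adult, and the surface protein Ly6a, higher at 1497 against 449 CPM. Ly6a had a read in 20 of 23 adult, 4 of 7 P12 and 2 of 4 hippocampal cells, and its values overlapped between the ages, with a lowest, median and highest cell of 0, 1422 and 4124 CPM in adult and 0, 26.5 and 1083 in P12.

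Among the lists plotted, the adult pool stood highest relative to P12 in immediate early and stress genes, interferon genes and MHC class I genes, and lowest in basement membrane, integrin and VEGF pathway genes.

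**Figure D2:**
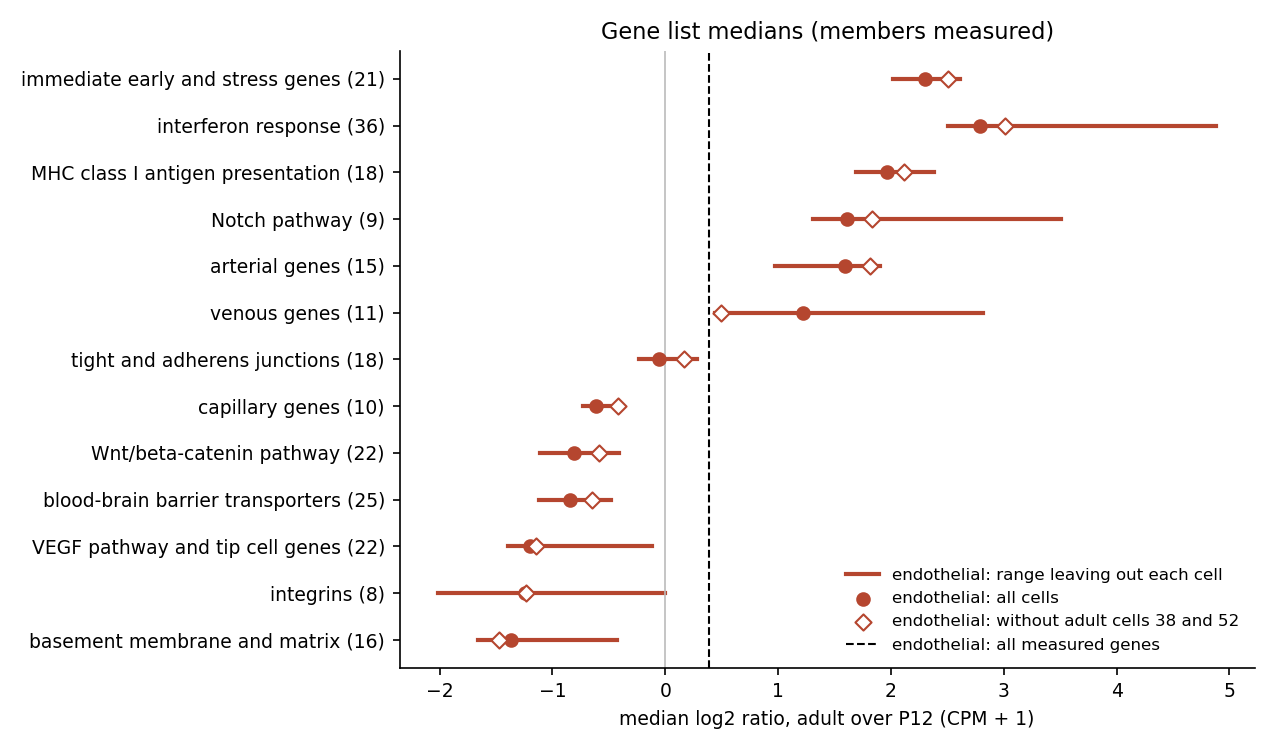
Median log2 ratio (adult over P12, CPM + 1) over the measured members of 13 gene lists (filled points), its range when each of the 30 cells is left out (lines) and its value without adult cells 38 and 52 (diamonds). The dashed line marks the median of all measured genes, 0.39. The lists of stress, interferon, MHC class I, Notch, arterial and venous genes keep their whole range above it. The other lists lie below it, the integrin, VEGF pathway and basement membrane lists lowest.

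Stress and immediate early genes were higher in the adult cells. Of 21 measured members, 15 were at least 2-fold higher and 0 at least 2-fold lower in adult, against 43.4% and 32.5% of all measured genes. Their median log2 ratio was 2.30 (2.02 to 2.61 leaving out each cell, 2.50 without adult cells 38 and 52), and 13 members were read in a larger share of adult cells. A larger share in adult was found for 29.9% of all measured genes. In microglia of the same sets (11 adult and 18 P12 libraries, a near-identical pair counted once), 5 of 21 members were at least 2-fold higher and 2 lower in adult (median 0.12, background 29.2% and 46.9%). In astrocytes (10 adult and 21 P12 cells) the numbers were 1 and 13 of 16 (median -3.76, background 24% and 58.7%). These values stand side by side, and their difference from the endothelial cells was not tested.

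The inducible heat shock protein 70 genes gave the clearest values of the list. Hspa1a encodes a chaperone that refolds damaged proteins, and its neighbour Hspa1b is a near-identical copy, so that the split of reads between them is uncertain and their sum is given too. The sum was at 515 CPM in adult, with a lowest, median and highest cell of 0, 213 and 2118, and at 0.439 CPM in P12, where no cell passed 2.56. A read of either was found in 20 of 23 adult cells, 1 of 7 P12 cells and 2 of 4 hippocampal cells. Most adult cells were therefore above all P12 cells, though the groups met at 0. Hspa1a alone had 7770 adult reads and 1 P12 read, a ratio of 2864 in CPM with a counting interval of 514 to 113149. The window before the start of Hspa1a is shown because its data are the most one-sided of the list (this window and the 3 shown later were chosen after the values were seen, from RefSeq, GRCm38.p6, chr17:34972157-34972406, minus strand). Capitals mark a match to the heat shock motif GAANNTTC and, nearer the start, a match to CCAAT, which reads ATTGG on this strand.
Hspa1a: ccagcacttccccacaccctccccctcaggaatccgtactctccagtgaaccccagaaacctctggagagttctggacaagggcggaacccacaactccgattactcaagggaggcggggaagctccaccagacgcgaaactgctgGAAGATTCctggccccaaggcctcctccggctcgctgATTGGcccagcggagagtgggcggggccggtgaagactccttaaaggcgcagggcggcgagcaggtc

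Motifs were searched on both strands in windows of 250 bases before to 50 after each start, of which the first 250 are printed. A base shared by 2 motifs counts for both. The windows of a single chromosome were left out of the search, and all windows means all those searched. For the 15 stress genes that were at least 2-fold higher, 13 had windows in the search, 14 in all. GAANNTTC was found in 4 of them (28.6%, against 7.86% of all 32851 windows), CCAAT in 8 (57.1% against 37.4%) and the cyclic AMP motif TGACGTCA in 2 (14.3% against 1.79%). The AP-1 motif TGANTCA was in none of them, against 7.81% of all. GAANNTTC and TGACGTCA were added to the search after the values were seen. The genes with GAANNTTC were Hspa1a, its near-identical copy Hspa1b, Hspb1 and Jun. The list was drawn up from known heat shock and immediate early genes, so that these shares describe the list and not the change with age. Members within 2-fold were not counted apart. Such a match is a description of letters, not of binding.

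The transcription factors of the list followed the same direction with more overlap. Atf3, a stress-induced repressor and activator of the ATF family, was at 1844 against 27.4 CPM (P12 interval 24.2 to 31.1). Its lowest, median and highest cells were 0, 478 and 7365 CPM in adult and 0, 0 and 129.9 in P12, with a read in 20 of 23 and 2 of 7 cells. In the P12 hippocampal cells Atf3 was read in 4 of 4 cells at 627 CPM, between both ages of cortex. Nr4a1, an orphan nuclear receptor induced by growth factors and stress, was at 1058 against 11.5 CPM, read in 16 of 23 adult and 2 of 7 P12 cells (log2 of the ratio 6.40, and with 1 cell left out from 6.13 to 8.29 without P12 cell 60). Egr1, a zinc finger factor of the first response, had lowest, median and highest cells of 2.23, 5902 and 22192 CPM in adult and 0, 643 and 3007 in P12, and a pooled level of 7250.4 against 973 CPM. Jun, a subunit of AP-1, was read in all cells of both ages at 2123 against 409 CPM (log2 of the ratio 2.37, and with 1 cell left out from 2.22 to 2.61). No P12 cell passed 668 CPM of Jun, below the adult median cell of 1716. Its partner Fos was within 2-fold at 6055 against 3279 CPM, as were Zfp36 (807 against 582 CPM), which destabilizes cytokine mRNAs, and Klf6 (1132 against 694 CPM), a Krüppel-like factor.

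Ier5, an immediate early gene linked to the heat shock response, had no P12 read and was at 129 CPM in adult, at least 391-fold higher against a floor of 3 reads over the P12 cells. It was read in 12 of 23 adult cells, and cell 20 held 37.8% of the adult reads. Dnajb1, a co-chaperone of heat shock protein 70, was at 262 against 12.7 CPM and read in 10 of 23 and 1 of 7 cells. Hspb1, a small heat shock protein, was at 181 against 30.96 CPM and read in 16 of 23 and 1 of 7 cells. The heat shock genes were thus read in a minority of P12 cells each, 1 cell at most for these 4 chaperone genes.

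**Figure D3:**
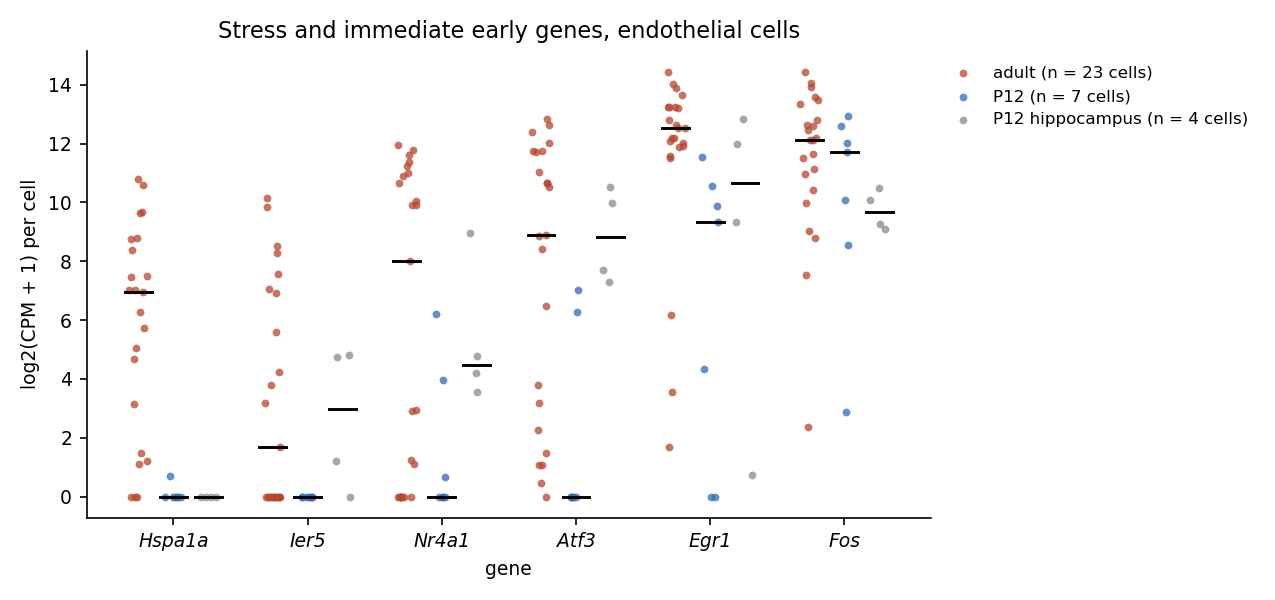
Level of 6 stress and immediate early genes per cell (y axis, log2 of CPM + 1), each point 1 cell and each bar the median of the group. Hspa1a, Ier5, Nr4a1 and Atf3 are near 0 in most P12 cells and spread widely in adult cells, and Fos overlaps between the ages.

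MHC class I genes, which present peptides of the cell's own proteins to T cells, were also higher in the adult pool. Of 18 measured members, 14 were at least 2-fold higher and 3 at least 2-fold lower in adult. These were 77.8% and 16.7% of the members, against 43.4% and 32.5% of all measured genes. No read in 1 of the ages was found for 5 of the measured members. On the log2 scale the median of the list was 1.97 (1.69 to 2.38 leaving out each cell, 2.11 without adult cells 38 and 52). By the difference of mean log2(CPM + 1) per cell it was 0.30, with 8 members read in a larger and 9 in a smaller share of adult cells. Over all measured genes that difference had a median of -0.70, with 29.9% in a larger and 69.8% in a smaller share. The shared light chain B2m was read in every cell of both ages at 1074 against 283 CPM (log2 of the ratio 1.92, and with 1 cell left out from 1.64 to 2.20). Its lowest, median and highest cells were 11.3, 1315 and 2868 CPM in adult and 3.69, 342 and 585 in P12. The upper part of the adult cells lay above all P12 cells, and the lower part among them. The heavy chains H2-K1 and H2-D1 are similar in sequence, so that their split is uncertain, and their sum was at 2011 against 419.7 CPM. That sum was at 2022 CPM in the P12 hippocampal cells, close to adult cortex, and with the hippocampal cells added to the P12 cells the list median came to 1.26. The peptide loading protein Tapbp was at 329 against 67.7 CPM, read in 12 of 23 and 2 of 7 cells. Several members of the list rest on 1 adult cell: all adult reads of H2-Q6, Nlrc5 and Tapbpl came from 1 cell each. Without adult cells 38 and 52, 13 members were higher and 2 lower, and the thiol oxidoreductase Pdia3 was at a log2 ratio of 0.75 in place of 2.16, since cell 38 held 67.7% of its adult reads.

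Interferon response genes, the antiviral programme that cells switch on behind the interferon receptors, were higher in the pool, though many were read in few adult cells. Of 36 measured members, 29 were at least 2-fold higher and 3 at least 2-fold lower in adult. These were 80.6% and 8.3% of the members, against 43.4% and 32.5% of all measured genes. For 12 of the higher members no read was found in the thinned P12 cells. They were measured through the adult pool alone and could only come out higher. Of all measured genes, 1333 had no read in a thinned P12 cell, and these were read in a median of 2 adult cells. Over the measured members the log2 ratio had a median of 2.79 (2.51 to 4.88 leaving out each cell, 3.01 without adult cells 38 and 52). Single P12 cells moved it: it was 3.94 without P12 cell 9, 4.88 without cell 26 and 4.51 without cell 60. The median of the per-cell measure, the difference of mean log2(CPM + 1), was 0.50, against -0.70 for all measured genes. In microglia 22 members were measured, 5 higher and 15 lower in adult (median -4.45, background 29.2% and 46.9%). In astrocytes the numbers were 1 and 12 of 13 (median -5.37, background 24% and 58.7%). The members measured differ between the cell types, and the difference from the endothelial cells was not tested. The membrane protein Ifitm3, which blocks virus entry, was at 425 against 92.2 CPM and read in 16 of 23 adult and 2 of 7 P12 cells (its homologue Ifitm2 can share reads). Ifi27 had no P12 read and was at 351 CPM in adult, at least 1064-fold higher, in 8 of 23 cells. Without adult cells 38 and 52 it was at 184 CPM, in 6 of 21 cells. Usp18, which removes the ubiquitin-like modifier ISG15 and damps the receptor, had no P12 read and was read in 6 of 23 adult cells, with 86.4% of its reads in cell 47. The factor Irf7 was read in 5 of 23 adult cells and Ifit1, which binds viral RNA, in 3 of 23, neither with a P12 read.

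The 12 interferon genes that were at least 2-fold higher and had no read in thinned P12 cells were counted in each adult cell. A median of 2 of them was read per adult cell, 5 adult cells had none, and cell 27 had the most, 5. That cell held 10072 CPM of them in sum and 1921 genes in all. The next highest sums were 6067 CPM in cell 47 and 3668 in cell 49. Whether these genes occur together in cells was not tested. The shared surface protein Ly6e was at 2855 against 3007 CPM and the receptor subunit Ifnar1 at 992 against 945 CPM, both within 2-fold. Lower members were Oas1a, Trim25 and Isg15, each read in 1 or 2 P12 cells.

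The windows before B2m and Ifit1 are shown as members of the MHC and the interferon list that hold the interferon-stimulated response element core, on either strand in capitals (GRCm38.p6, chr2:122147437-122147686, plus strand and chr19:34640639-34640888, plus strand). A CCAAT match on the minus strand is also in capitals in B2m, nearer the start. Ifit1 holds 2 matches to the core.
B2m: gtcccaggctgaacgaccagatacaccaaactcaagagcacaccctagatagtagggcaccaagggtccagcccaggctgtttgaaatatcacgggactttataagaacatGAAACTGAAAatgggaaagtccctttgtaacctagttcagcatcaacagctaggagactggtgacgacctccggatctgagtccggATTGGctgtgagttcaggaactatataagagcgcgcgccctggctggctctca
Ifit1: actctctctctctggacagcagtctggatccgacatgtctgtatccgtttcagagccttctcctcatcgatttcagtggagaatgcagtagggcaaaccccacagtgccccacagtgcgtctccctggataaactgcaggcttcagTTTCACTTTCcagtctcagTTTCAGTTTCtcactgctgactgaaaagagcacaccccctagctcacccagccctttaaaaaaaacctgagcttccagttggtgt

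The core was found in 12 of 23 windows of 21 of the 29 interferon genes that were at least 2-fold higher (52.2%), in 4 of 13 windows of the higher MHC genes (30.8%), and in 3.44% of all windows. The list was drawn up from genes known to answer interferon, so that this share describes the list and not the change with age. TGANTCA was in 7 of the interferon windows (30.4%).

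**Figure D4:**
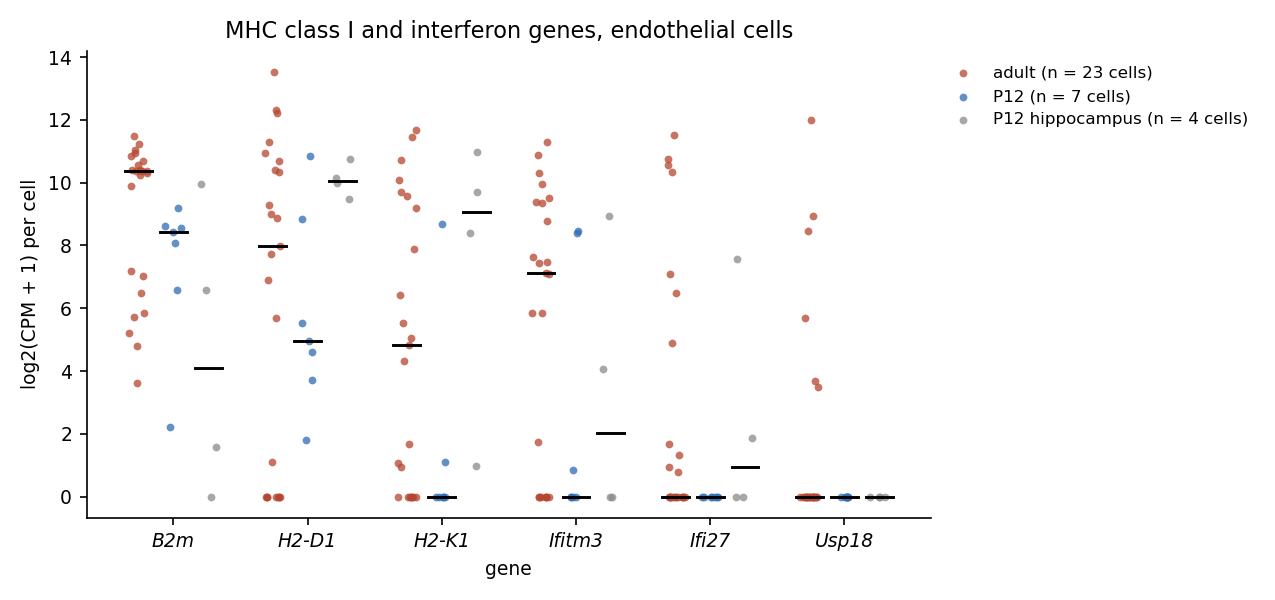
Level of 6 MHC class I and interferon genes per cell (y axis, log2 of CPM + 1), each point 1 cell and each bar the median of the group. B2m is present in every visual cortex cell, while Ifi27 and Usp18 are at 0 in all 7 P12 visual cortex cells and in most adult cells.

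Basement membrane and matrix genes were lower in the adult cells. Of 16 measured members, 1 was at least 2-fold higher and 9 at least 2-fold lower in adult, against 32.5% of all measured genes that were lower. The median log2 ratio over these members was -1.36 (-1.66 to -0.43 leaving out each cell, -1.48 without adult cells 38 and 52). Without P12 cell 39 the median was -0.43, and the size of the difference over the list thus rests on that cell.

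Nid1 encodes nidogen-1, which links laminin to collagen IV, and was near absent from the adult cells. It had 1 read in the 23 adult cells together and 7623 reads in the 7 P12 cells, 0.0405 against 837 CPM, a ratio of P12 over adult of 20679 with a counting interval of 3710.3 to 816872. Lowest, median and highest P12 cells were 0, 485 and 2378 CPM, and the highest adult cell was at 1.52. After thinning it was read in 6 of 7 P12 cells and in 0 of 23 adult cells. The exact binomial upper limit for the adult share is 14.8%, which takes the cells as independent draws and says nothing of other adult animals. Among the 621 genes read in at least 6 P12 cells, Nid1 was the only one read in no adult cell. All 4 hippocampal cells held it, at 1263 to 6393 CPM. Its log2 ratio lay between -9.95 and -9.17 whichever cell was left out. The window before its start is shown as that of the gene with this one-sided pattern (RefSeq, GRCm38.p6, chr13:13437352-13437601, plus strand), with a match to CCAAT in capitals, as ATTGG on this strand.
Nid1: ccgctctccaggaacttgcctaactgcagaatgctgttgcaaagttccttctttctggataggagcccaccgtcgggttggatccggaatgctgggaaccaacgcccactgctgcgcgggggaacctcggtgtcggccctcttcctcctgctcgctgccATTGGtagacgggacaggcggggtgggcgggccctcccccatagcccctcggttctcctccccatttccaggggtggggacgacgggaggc

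CCAAT was in 4 of 6 windows found for the 9 lower matrix genes, against 37.4% of all, and none of these windows held TGANTCA or the Wnt factor motif CTTTGAT, which 3.73% of all windows held. Sparc, a collagen-binding protein of growing matrix, was at 1287 against 8539 CPM (log2 of the ratio -2.73, and with 1 cell left out from -3.06 to -2.43). Its lowest, median and highest cells were 0, 583 and 7944 CPM in adult and 3949, 7253 and 18834 in P12. Every P12 cell lay above the adult median, and of the adult cells only cell 28, the highest, lay among the P12 cells. In the hippocampal cells Sparc was at 8613 CPM, close to P12 cortex.

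The collagen IV chains, the network-forming core of the membrane, were lower too. Col4a1 was at 243 against 807 CPM and read in 13 of 23 and 7 of 7 cells, and Col4a2 at 196 against 642 CPM and in 11 of 23 and 5 of 7 cells. Col4a1 varied with 1 cell (log2 of the ratio -1.73, and with 1 cell left out from -2.19 to -0.40 without P12 cell 39), as did Col4a2 (log2 of the ratio -1.70, and with 1 cell left out from -2.06 to -0.80 without P12 cell 39). Perlecan, Hspg2, was at 9.19 against 152 CPM (log2 of the ratio -3.91, and with 1 cell left out from -4.98 without adult cell 47 to -2.84 without P12 cell 11), the laminin chain Lamc1 at 2.87 against 175 CPM (log2 of the ratio -5.50, and with 1 cell left out from -6.61 without adult cell 52 to -4.01 without P12 cell 26) and Nid2 at 4.29 against 232 CPM (log2 of the ratio -5.46, and with 1 cell left out from -7.86 without adult cell 49 to -4.52 without P12 cell 8). The laminin chain Lama5, found in mature vessel walls, was the 1 member at least 2-fold higher, at 193 against 3.18 CPM, read in 6 of 23 adult and 2 of 7 P12 cells. Fibronectin, Fn1, was within 2-fold at 1062 against 1300.4 CPM. Of the integrins, the receptors of this matrix, 5 of 8 were lower and 1 higher (median -1.24, -1.23 without adult cells 38 and 52, -2.01 without adult cell 33, -2.0 without adult cell 47 and 0.00 without P12 cell 39). With members measured at 50 CPM the integrin median turned to 0.20. The shared beta chain Itgb1 was at 97.6 against 716 CPM (log2 of the ratio -2.86, and with 1 cell left out from -3.75 without adult cell 20 to -1.69 without P12 cell 26), and the laminin-binding chain Itga6 was higher at 843 against 335 CPM.

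**Figure D5:**
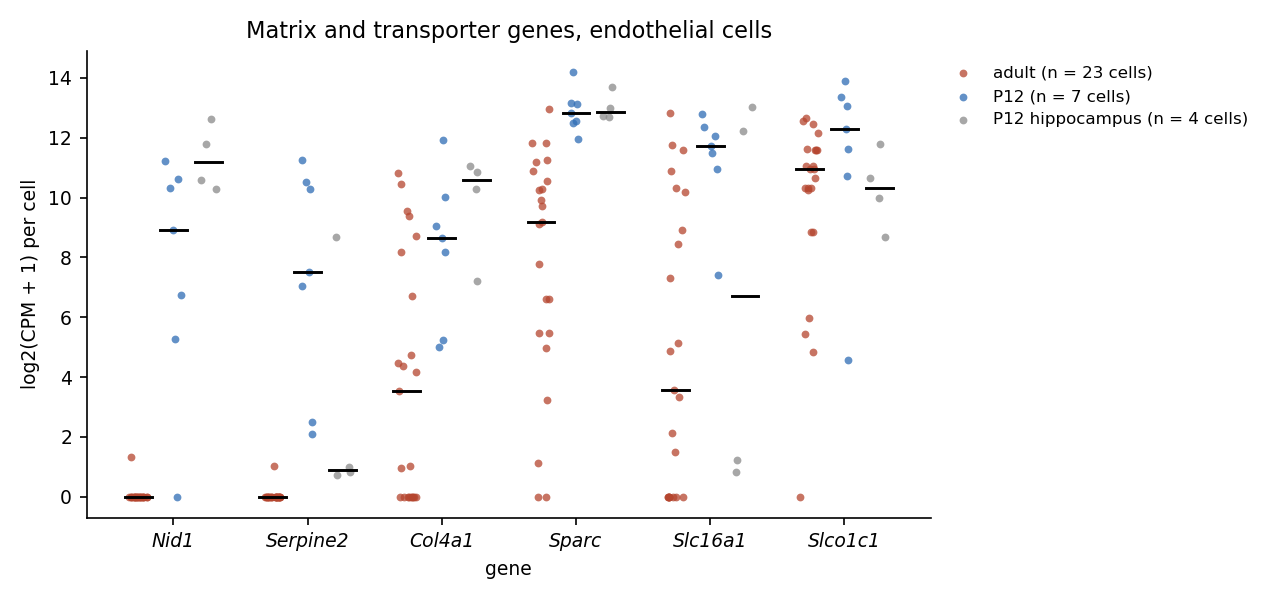
Level of 4 matrix or protease inhibitor genes and 2 transporters per cell (y axis, log2 of CPM + 1), each point 1 cell and each bar the median of the group. Nid1 is at 0 in all but 1 adult cell, Sparc is at 3949 CPM or more in every P12 cell, and both transporters overlap between the ages.

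Genes of the VEGF pathway and of tip cells were mostly lower in adult. Of 22 measured members, 5 were at least 2-fold higher and 12 at least 2-fold lower in adult. These were 22.7% and 54.5% of the members, against 43.4% and 32.5% of all measured genes. The list had a median log2 ratio of -1.20 (-1.39 to -0.12 leaving out each cell, -1.14 without adult cells 38 and 52). The receptor Kdr, which carries the main growth signal of VEGF, was at 412 against 1166 CPM (log2 of the ratio -1.50, and with 1 cell left out from -1.93 to -1.16), with a lowest, median and highest cell of 0, 8.91 and 3034 CPM in adult and 119, 980.0 and 2299 in P12. All P12 cells were above the adult median cell, with wide overlap above it. Its co-receptor Nrp1 was at 530.3 against 1085 CPM, read in 10 of 23 and 7 of 7 cells. The apelin receptor Aplnr, found on growing vessels and veins, had no adult read and was at 148 CPM in P12, at least 1217-fold lower in adult, but was read in 3 of 7 P12 cells. The list members Apln, a peptide ligand of growing vessels, Mcam, an adhesion molecule, and Trp53i11 had at most 1 adult read each and were each read in 1 P12 cell. Without P12 cell 39 the list median was -0.12, or 0.03 over the members measured with all cells, and the median of the list thus rests on 1 cell. Angpt2, which loosens vessel walls, was at 78.2 against 571 CPM and likewise came from 1 of 7 P12 cells.

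Among the carriers of the blood-brain barrier, 10 of 25 measured members were at least 2-fold lower and 5 higher in adult. These were 40% and 20% of the members, against 32.5% and 43.4% of all measured genes. On the log2 scale the median of the list was -0.85 (-1.12 to -0.48 leaving out each cell, -0.65 without adult cells 38 and 52). The monocarboxylate carrier Slc16a1, which brings in lactate and ketone bodies, was at 722 against 3411 CPM (log2 of the ratio -2.24, and with 1 cell left out from -2.84 without adult cell 32 to -1.95). Its lowest, median and highest cells were 0, 10.7 and 7244 CPM in adult and 171, 3393 and 7146 in P12, with a read in 14 of 23 and 7 of 7 cells. Most adult cells lay below all P12 cells, and cell 32 alone held 36.4% of the adult reads. The zinc importer Slc39a10 was at 919 against 3943 CPM (log2 of the ratio -2.10, and with 1 cell left out from -2.37 to -1.60), the thyroid hormone carrier Slco1c1 at 2166 against 6094 CPM (log2 of the ratio -1.49, and with 1 cell left out from -1.70 to -1.09) and the iron exporter Slc40a1 at 1298 against 3676 CPM (log2 of the ratio -1.50, and with 1 cell left out from -1.93 to -1.21). In the P12 hippocampal cells these were at 751, 1690.4 and 859.6 CPM, below both P12 and adult cortex in each case. The whole list summed to a median of 23477 CPM per hippocampal cell, against 26086 in adult and 43317 in P12 cortex. Slc16a1 was split between the 4 hippocampal cells, at 0.777, 1.32, 4781 and 8306 CPM.

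The lipid carrier Mfsd2a, which limits transcytosis, was at 77.02 against 281 CPM and read in 5 of 23 adult and 5 of 7 P12 cells. Among the 10 members within 2-fold, the glucose carrier Slc2a1 was at 1504 against 1440.0 CPM, the drug efflux pump Abcg2 at 830.1 against 934 CPM and the organic anion carrier Slco1a4 at 5379 against 3229 CPM. The efflux pump Abcb1a was at 751 against 391 CPM, a log2 ratio of 0.94 that came to 1.16 without adult cells 38 and 52. The 5 higher members included the thiamine carrier Slc19a3 at 789.8 against 142 CPM, the insulin receptor Insr at 175 against 32.6 CPM, the zinc exporter Slc30a1 at 185 against 17.6 CPM, the lipoprotein receptor Lrp1, of whose adult reads cell 52 held 99.6%, and the efflux pump Abcc4 at 777 against 84.8 CPM, of whose adult reads cell 40 held 53.5%.

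The junction genes, which seal the barrier, had members on both sides in the pooled ratio. Of 18 measured members, 5 were at least 2-fold higher and 2 at least 2-fold lower in adult. These were 27.8% and 11.1% of the members, against 43.4% and 32.5% of all measured genes. Over the measured members the log2 ratio had a median of -0.05 (-0.23 to 0.28 leaving out each cell, 0.17 without adult cells 38 and 52). By the difference of mean log2(CPM + 1) per cell it was -1.68, against -0.70 for all measured genes, and 14 members were read in a smaller share of adult cells. A smaller share in adult was found for 69.8% of all measured genes. Cldn5, the main claudin of brain endothelium, was at 808 against 1315 CPM (log2 of the ratio -0.70, and with 1 cell left out from -1.20 to -0.34), Ocln at 630.3 against 768 CPM and the adherens junction cadherin Cdh5 at 114 against 106 CPM. Cldn5 was read in 16 of 23 adult and 7 of 7 P12 cells. The polarity protein Pard3 had no P12 read and was at 159 CPM in adult, read in 9 of 23 cells, with 67.3% of the reads in cell 60.

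Wnt pathway genes differed in both directions. Of 22 measured members, 7 were at least 2-fold higher and 10 at least 2-fold lower in adult. These were 31.8% and 45.5% of the members, against 43.4% and 32.5% of all measured genes. Genes at large thus differed in both directions too. The median log2 ratio over these members was -0.81 (-1.11 to -0.41 leaving out each cell, -0.59 without adult cells 38 and 52). Lef1, a nuclear factor of the pathway, was higher at 920.3 against 377 CPM (log2 of the ratio 1.28, and with 1 cell left out from 1.08 to 1.80), read in 20 of 23 and 7 of 7 cells. Axin2, a feedback inhibitor, was at 46.1 against 1.98 CPM and read in 10 of 23 and 1 of 7 cells. The Wnt inhibitor Apcdd1 was lower at 234 against 863 CPM (log2 of the ratio -1.88, and with 1 cell left out from -2.63 without adult cell 52 to -1.50), as were the receptor Fzd6 at 25.6 against 131 CPM (log2 of the ratio -2.31, and with 1 cell left out from -3.25 without adult cell 20 to -1.81) and the forkhead factor Foxf2 at 19.1 against 198 CPM (log2 of the ratio -3.31, and with 1 cell left out from -4.33 without adult cell 20 to -2.31 without P12 cell 22).

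Lists for the vessel segments were also counted, and differences between segments were not tested. Of all measured genes, 43.4% were at least 2-fold higher and 32.5% at least 2-fold lower in adult. Capillary genes had 1 member higher and 2 lower of 10 (median -0.61, -0.42 without adult cells 38 and 52). Arterial genes had 8 higher and 4 lower of 15 (median 1.60, 1.82 without adult cells 38 and 52, 0.97 without adult cell 55 and 1.01 without adult cell 33), and venous genes 6 and 2 of 11 (median 1.22, 0.49 without adult cells 38 and 52, 0.44 without adult cell 38, 2.78 without P12 cell 9 and 2.82 without P12 cell 60). By the difference of mean log2(CPM + 1) per cell the arterial and venous medians were 0.02 and -0.09, against -0.70 for all measured genes. With the hippocampal cells added to P12 the pooled ones were 0.74 and 0.08. Few cells carried some arterial genes: the phosphatase Alpl had no P12 read and was read in 4 of 23 adult cells, and the matrix protein Mgp in 3 of 23. The arterial list summed to 0, 3843 and 27108 CPM in the lowest, median and highest adult cell and to 313, 1647 and 3368 in P12. With 7 P12 cells, the absence of a segment from the P12 set cannot be told from a difference with age. The Notch list, which sets arterial fate, had 6 higher and 2 lower of 9 (median 1.61, 1.83 without adult cells 38 and 52, 3.51 without P12 cell 39). The Notch and arterial medians turned negative (-2.67 and -2.62) when only 3 adult cells as rich in genes as the P12 cells were used. The deepest of these was cell 38, which goes against its label, so that these values are not of endothelial cells alone. By the per-cell measure the Notch median was -0.91, near the -0.70 of all measured genes. The Notch target Hes1 was read in 18 of 23 adult and 4 of 7 P12 cells at 61.4 against 12.6 CPM (log2 of the ratio 2.20, and with 1 cell left out from 1.93 to 3.09 without P12 cell 39).

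By the rule for single genes (at least 50 CPM, read in at least 50% of the cells of the higher age and in a share 30 points above the other, and 2-fold or more whichever cell was left out), 32 genes qualified as higher and 274 as lower in adult, of which the 15 with the largest ratio in each direction are named. The lower number of genes per adult cell stands beside this split. Itih5, a matrix protein that binds hyaluronan, had the largest ratio. It had no read in any P12 cortical cell and was at 1881 CPM in adult, at least 5711-fold higher. Its lowest, median and highest adult cells were 0, 249.8 and 7057 CPM, with a read in 18 of 23 adult and 0 of 7 P12 cells. The Clopper-Pearson upper limit for the P12 share is 40.96%, which takes the 7 cells as independent draws and says nothing of other P12 animals. In the hippocampus, 1 of 4 cells held Itih5 at 2.25 CPM. In astrocytes of the same sets Itih5 was at 1289 against 31.1 CPM and in microglia at 0.559 against 27.1 CPM.

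The other genes of the higher set are of mixed function. Besides Hspa1a, Hspa1b, Ier5, Nr4a1 and Atf3 they were the metal-binding protein Mt1 (171 against 2.64 CPM), the membrane progestin receptor Paqr5 (691 against 13.8 CPM), the deubiquitinase Usp37 (399 against 5.27 CPM), the PDZ protein Pdzd2 (155 against 0.988 CPM), the protocadherin Pcdh15 (118 against 0.110 CPM), the RNA-binding protein Hnrnpr (119 against 0 CPM), the RNA exosome subunit Exosc2 (82.9 against 0 CPM), the aldehyde oxidase Aox2 (67.2 against 0 CPM) and the cytochrome oxidase assembly factor Cox11 (63.02 against 0 CPM). Pcdh15 was also higher in adult astrocytes (198 against 0.555 CPM) and microglia (79.5 against 3.69 CPM), and so were Aox2 (46.9 against 0 CPM and 37.8 against 4.14 CPM) and Cox11 (63.01 against 16.1 CPM and 9.89 against 0.122 CPM). For these 3 genes the direction was thus the same in all the cell types compared, and whether the sizes differ was not tested. Pdzd2, Hnrnpr and Exosc2 rested on 1 cell for 47.98%, 48.7% and 47.4% of their adult reads, cells 52, 24 and 20 in that order. Without adult cells 38 and 52, all 30 genes named by the rule kept their direction and a difference of 2-fold or more.

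The lower set was led by the protease inhibitor Serpine2, with 1 adult read in all, at 0.0405 against 941 CPM (ratio of P12 over adult 23250.4, counting interval 4172 to 918446), read in 1 of 23 adult and 6 of 7 P12 cells. Its lowest, median and highest P12 cells were 3.26, 183 and 2427 CPM, and all were above the highest adult cell, 1.05 CPM. Among measured genes it alone had all adult cells below every P12 cell of visual cortex, and no gene had all adult cells above. The P12 hippocampal cells differed from the cortical ones, with 0.658, 0.777, 0.969 and 408 CPM, 3 of the 4 below the highest adult cell. Next to Nid1, cytoskeletal genes stood in this set: the non-muscle myosin heavy chain Myh10 (0.648 against 687 CPM, read in 2 of 23 and 6 of 7 cells), the actin regulators Coro1c (2.59 against 862 CPM) and Abi1 (0.0809 against 259 CPM), and the tubulin Tubb6 (0.283 against 331 CPM). The rest were the ubiquitin ligase adaptor Spsb1 (0.0405 against 519 CPM), the translation initiation factor Eif2s1 (0 against 356 CPM), the small GTPase Gpn3 (0 against 423 CPM), the transcription cofactors Tada1 (0.567 against 458 CPM) and Med27 (0 against 265 CPM), the progestin receptor Paqr7 (0.405 against 285 CPM), the iron reductase Steap3 (0 against 172 CPM), and Spag7 (0.364 against 311 CPM) and Fam210a (0.486 against 259.8 CPM). P12 cells differed widely in these genes: Spsb1 had a median P12 cell of 2.33 CPM and a highest of 2830.2, and its log2 ratio of -8.97 came to -4.13 without P12 cell 8. In P12 hippocampal cells Coro1c was at 7.49 CPM and Fam210a, Med27 and Tada1 had no read.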

How the data were processed

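The authors deposited 1 table of raw read counts per gene for 333 cells, made with STAR, HTSeq 0.6.0 and the mm10 build, per the submitters' processing notes; the labels' protocols give C1 capture, SMARTer amplification and Nextera XT libraries and name no molecular identifiers, so reads are not independent molecules. Whether counting used strand is not given in the sources used here, so genes that overlap cannot be told apart. Of 22074 gene symbols, 21274 matched mouse symbols, and 10 of 809 list entries found no row.

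Counts were summed per age and scaled to CPM. Measured genes had 10 CPM or more in either age, the pseudocount was 1, and a 2-fold difference was counted. Numbers of cells with a read used seeded thinning to 370000 reads. Single genes were named by this rule: the 15 largest ratios per direction at 50 CPM or more, read in at least 50% of the cells of the higher age with a share 30 points above the other, at least 2-fold whichever cell was left out, and with a mean log2(CPM + 1) difference of 1 or more in the same direction; ribosomal, Gm and Rik genes were left out, and list members could be named freely. The comparison, the 40 lists and their members were chosen with earlier results of these data known, and the lists given most room, the genes plotted and the marker limit that singles out adult cells 38 and 52 (under 5% of the adult median) with their values seen. One of 2 near-identical adult microglia libraries was left out of the microglial values. Intervals are exact Poisson or Clopper-Pearson. Only the pooled log2 ratio was run on simulated counts with known fold changes, in which the cells of an age shared a common profile. Thinning, list medians, the naming rule, the scan for outlying cells and the motif search were not simulated. Python 3.11.15, pandas 2.3.3, scipy 1.17.1, and edgeR 4.0.16 (for TMM factors only) were used. Alternatives were other scalings, pseudocounts, filters and summaries, each cell left out, and sets of cells left out.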

Additional observations from a re-analysis of the deposited data

Results flagged for a closer look

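Sums of gene lists per cell were scanned for a cell far from the others of its group, in the 7 P12 visual cortex cells and the 4 P12 hippocampal cells, by Dixon's ratio of the gap to the nearest cell over the whole range. Of 28 scans 6 passed the critical value, which about 1 in 20 would pass for independent, normally distributed values. Summed CPM of single cells need not be so distributed, and some entries stand in more than 1 list. The number passed can therefore not be set against chance. P12 visual cortex cell 39 was lowest in barrier transporters, at 11800 summed CPM against 38100 to 65100 in the others, and in capillary genes, at 4550 against 14600 to 32400. This is the cell whose removal moves the basement membrane and VEGF pathway medians most. P12 visual cortex cell 9 was lowest in arterial genes, at 313 against 1250 to 3370. Among hippocampal cells, cell 50 was lowest in junction genes (3140 against 9860 to 12400), cell 51 lowest in MHC class I genes (2140 against 4140 to 4510) and cell 68 highest in venous genes (6320 against 3090 to 3320). Groups of more than 10, such as the adult cells, were not scanned.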

How the results depend on the processing

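Under TMM, median-of-ratios scaling (which add 0.16 and 0.06 to log2 ratios, and less for genes near 0 in an age) and a pseudocount of 5, the medians of the 8 lists given most room and both counts of genes stayed within 1.5-fold. The number of genes higher in adult was 1866 when measured at 50 CPM, 578 by the difference of mean log2(CPM + 1) per cell and 1686 with only the 3 adult cells in the P12 range of genes detected, against 3111; at 4-fold, 2507 were higher and 1675 lower. By the mean of log2 values the medians were -2.38 for transporters, -1.68 for junctions, -3.18 for basement membrane, 0.30 for MHC class I and 0.50 for interferon genes, and turned for Notch (-0.91) and venous genes (-0.09). Its median over all measured genes was -0.70, beside 0.39 for the pooled ratio. With the 3 gene-rich adult cells, 1 of them cell 38, the medians were -1.48 for transporters, -2.90 for Wnt, -7.22 for VEGF, -3.10 for basement membrane and 1.66 for interferon genes. They turned for Notch (-2.67) and arterial genes (-2.62). Cell 38 goes against its label and held 2660212 reads, beside 1738344 and 1327461 in cells 40 and 47. Measured at 50 CPM, interferon genes came to 4.91 and integrins turned (0.20). With hippocampal cells added, MHC class I came to 1.26. The cause was not tested. The gene-rich set of adult cells, the removal of cells 38 and 52 and that of cell 52 alone were chosen after seeing the data.

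Leaving out each cell in turn gave 2982 to 3277 genes higher and 2135 to 2385 lower. List medians ranged from 2.02 to 2.61 for immediate early and stress genes, 2.51 to 4.88 for interferon genes, 1.69 to 2.38 for MHC class I genes, -1.66 to -0.43 for basement membrane genes, -1.39 to -0.12 for VEGF pathway genes, -1.12 to -0.48 for transporters, -1.11 to -0.41 for Wnt pathway genes, -0.23 to 0.28 for junction genes. For the 30 genes named by the rule, 878 of 900 such values stayed within 1.5-fold, and the rule itself fixed their direction. Under the other settings 88 of 360 values moved by more, among them 27 of 30 with a pseudocount of 5, 29 by the mean of log2 values and 15 with hippocampal cells added. The share gap of -9.94 points came to -9.29 at 700000 reads and -11.18 without thinning. Over the members measured with all cells, in place of a set drawn anew, the lowest values were 2.28 for interferon (without adult cell 47), 0.59 for arterial (without adult cell 33) and 0.13 for venous genes (without adult cell 38), and the highest for VEGF pathway genes was 0.03 (without P12 cell 39). No paired analysis was possible because the cell numbers only name cells. With 7 P12 cells, 1 cell can carry most of the reads of a gene.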

Other observations

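Housekeeping lists had pooled medians near 0 or below, and lower values by the difference of mean log2(CPM + 1) per cell, -2.79 for ribosomal protein, -1.94 for oxidative phosphorylation and -2.12 for glycolysis genes. Over all measured genes that difference had a median of -0.70. All 30 oxidative phosphorylation genes were read in a smaller share of adult cells, as were 69.8% of all measured genes. In the pooled ratio, 43.4% of all measured genes were at least 2-fold higher and 32.5% lower. Ribosomal protein genes, whose many near-identical copies make single members uncertain, were 5 higher and 24 lower of 76 (median -0.60, -0.55 without adult cells 38 and 52). Oxidative phosphorylation genes were 8 higher and 4 lower of 30 (median 0.17, -0.43 without adult cells 38 and 52) and glycolysis genes 5 higher and 2 lower of 14 (median -0.05, -0.76 without adult cells 38 and 52, -0.77 without adult cell 38), so that both lists lay lower once the cells that go against their label were left out. Endothelial transcription factors were 11 higher and 10 lower of 30 (median -0.14, 0.07 without adult cells 38 and 52), and cytoskeleton and motility genes 4 higher and 7 lower of 24 (median -0.37, -0.40 without adult cells 38 and 52).

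Of 36 cell cycle genes, 28 were under 10 CPM in both ages. The remaining ones were 4 higher and 4 lower of 8 (median 0.36, -1.14 without adult cells 38 and 52, -1.30 without adult cell 52 and 1.94 without P12 cell 8). The whole list summed to 104, 1438 and 5139.8 CPM in the lowest, median and highest adult cell and to 20.1, 666 and 1186 in P12. Genes of leukocyte adhesion and inflammation were 6 higher and 3 lower of 14 (median 0.23, -0.34 without adult cells 38 and 52, 1.35 without P12 cell 39), and TGF-beta and BMP pathway genes 2 higher and 6 lower of 16 (median 0.14, 0.25 without adult cells 38 and 52). The background for these counts is 43.4% higher and 32.5% lower of all measured genes.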
